A study of Mus musculus with 6 samples.

Results

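The 39 genes described here encode the core of NF-kB and JAK-STAT3 signalling: NF-kB subunits, their inhibitors and kinases, upstream receptors and adaptors, the gp130-JAK-STAT3 branch, and inflammatory genes that both pathways can induce. They were picked by gene symbol for their place in these pathways, with earlier results of these data known. All 39 were found among the 54393 gene rows of the table. Poly(A) RNA was sequenced from the hippocampus of untreated C57BL/6 mice aged 6 to 8 weeks, 3 libraries from wild-type mice and 3 from miR-301a-/- mice, which lack the microRNA miR-301a. The labels do not say how the allele was made, which sex was used, or whether a library holds 1 animal or a pool. The wild-type libraries carry the codes 1-1, 2-1 and 2-2 and the knockout libraries 1-1, 2-2 and 3-1, and all values below are listed in that order. Since separate animals are not stated, p-values speak only to the spread among these libraries, part of which may be technical.

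NF-kB is a family of dimeric transcription factors held in the cytoplasm by IkB proteins until the IkB kinase complex marks those inhibitors for destruction. Receptors for TNF and interleukin-1 reach this kinase through TRAF and IRAK adaptors and the TAK1 complex. Cytokines of the interleukin-6 family act through the shared receptor gp130 and the kinases JAK1 and JAK2 on STAT3, which induces its own feedback inhibitor, SOCS3. In the brain these pathways are best known from microglia, astrocytes and vessels responding to injury or infection, and they are also active at a low level in neurons.

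MicroRNAs pair with messenger RNAs mainly through their seed, bases 2 to 8. The mature sequence of miR-301a-3p and those of its relatives miR-130a-3p and miR-130b-3p are shown because they share that seed, in capitals, and lie at other loci (RefSeq, GRCm38.p6; miR-301a-3p at chr11:87113054-87113076, plus strand; miR-130a-3p at chr2:84741116-84741137, minus strand; miR-130b-3p at chr16:17124071-17124092, minus strand).
miR-301a-3p: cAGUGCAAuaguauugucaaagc
miR-130a-3p: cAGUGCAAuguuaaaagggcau
miR-130b-3p: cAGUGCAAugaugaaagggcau

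The 7 bases that pair with this seed, TTGCACT on the sense strand, were searched in the longest annotated 3′ UTR of each gene. Of the 39 genes, 3 held a match: Tab2, Il6st and Tnf. Among the tested genes of the list this was 2 of 28, or 7.14%, against 12.6% of the 12768 tested genes with an annotated 3′ UTR. None of the 3 matches is followed by an A. The sites are shown with their flanks because they are the only matches in the list, the match in capitals (GENCODE M21 transcripts, GRCm38; Tab2 at chr10:7905910-7905936, minus strand; Il6st at chr13:112504657-112504683, plus strand; Tnf at chr17:35199700-35199726, minus strand). A match of letters describes a sequence and not a working site.
Tab2: cttccgggctTTGCACTgtgagtatgg
Il6st: ttcagaatgtTTGCACTgccgaaaaca
Tnf: ctatttatatTTGCACTtattatttat

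The genetic label could not be checked from the targeted gene. Mir301 had a value of 0 in each wild-type and each knockout library, and mature microRNAs are not what poly(A) libraries hold. Its host gene Ska2 lay at 5.80, 5.70 and 6.08 in wild type and at 5.44, 5.17 and 6.14 in knockout. Hippocampal markers were present in every library: the granule neuron gene Prox1 lay between 12.7 and 21.6 and the pyramidal neuron gene Neurod6 between 58.6 and 122 over all libraries. Depth was estimated from the lowest product of value and exonic length among long single-exon genes, taken to stand for 1 read. This gave 16.2 to 26.9 in units of 1e+06 reads per library, if values are scaled to gene length and depth. Pairwise correlations of log2 values across genes, which are not independent replicates, were 0.970 to 0.976 within a genotype and 0.968 to 0.978 between genotypes. Knockout 1-1 had the highest mitochondrial share of the summed values, 22.8%, and the highest erythroid, ependymal and choroid plexus marker sums given below.

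Most genes of the signalling machinery lay above 1 in every library, and the cytokine genes lay under 1. The values carry no stated unit and were read as FPKM-like, that is, scaled to the length of each gene and the depth of each library. Levels are set side by side between genes on that reading, which was not checked. Jak1, a kinase bound to gp130, was the most abundant of the 39 genes, with levels of 41.3, 41.0 and 42.3 in wild type and 42.1, 42.4 and 45.7 in knockout. At the other end, the cytokine gene Il6 was listed at 0 in 5 of the 6 libraries and at 0.155 in wild type 2-2. Of the 39 genes, 28 reached a value of 1 in at least 3 libraries and were tested, and 11 did not: Nfkb2, Rel, Nfkbie, Irak4, Birc3, Icam1, Il1b, Nlrp3, Ccl2, Il6 and Tnf. In whole tissue, fewer cells of a type and less RNA per cell cannot be told apart.

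**Figure D1:**
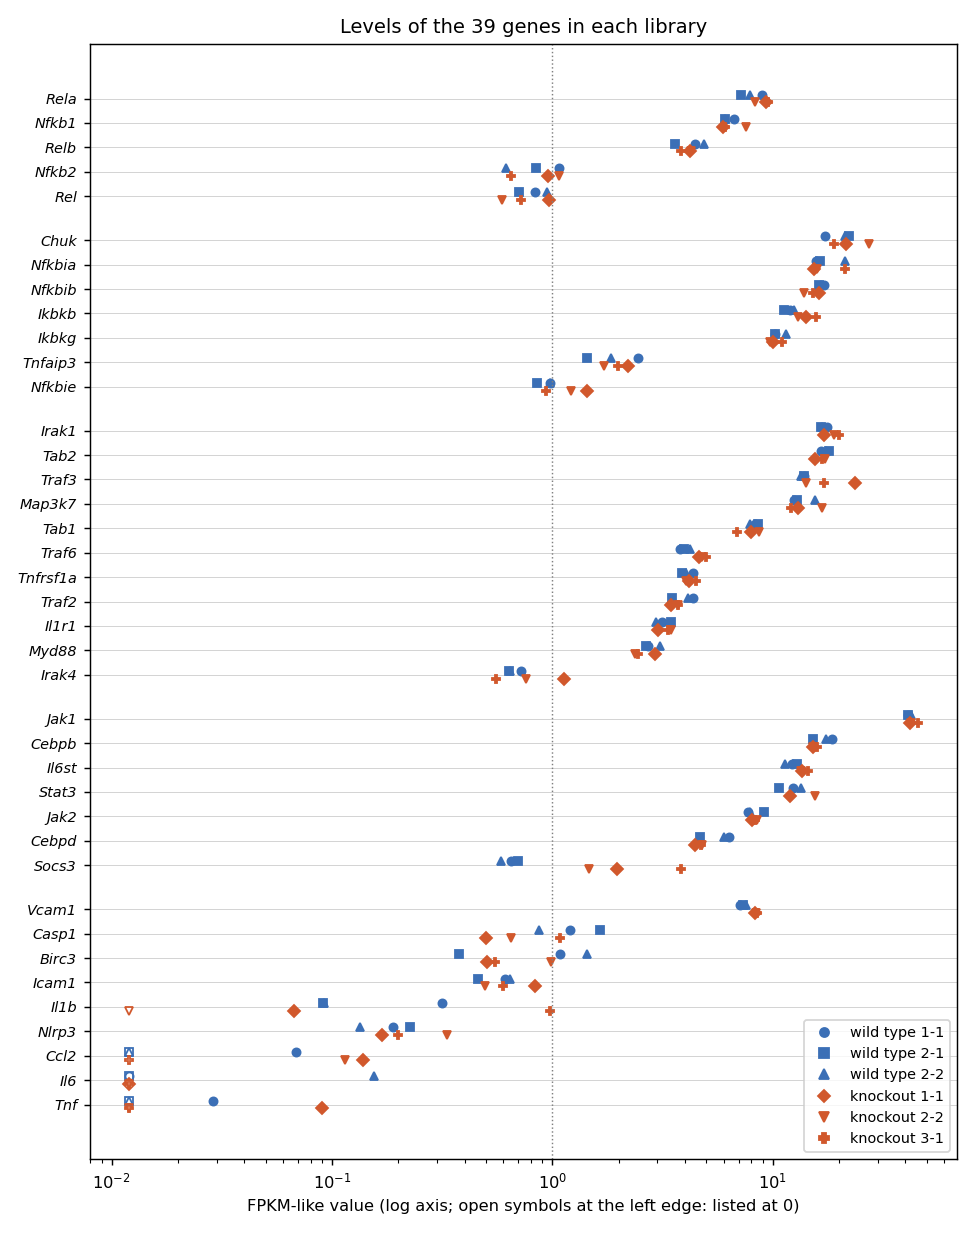
Level of each of the 39 genes in each library (FPKM-like value, log axis), grouped by role and ordered by mean level. Blue symbols are the wild-type libraries and orange symbols the knockout libraries; the dotted line marks a value of 1, and open symbols at the left edge are values of 0. Most receptor, adaptor, kinase and inhibitor genes lie above 1, Irak4, Nfkbie, Nfkb2 and Rel lie around or under it, Socs3 lies on either side of 1 by genotype, and 7 of the 9 output genes did not reach the floor for testing.

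None of the 28 tested genes differed between the genotypes at the threshold used. Differences were tested with limma on log2(value + 1) over all 14708 genes that reached the floor, and the threshold was an adjusted p of 0.05 (Benjamini-Hochberg over all of them). Over all genes 16, or 0.109%, were called. For the 28 genes the adjusted p lay between 0.698 and 0.993. At an unadjusted p under 0.05 there were 4 genes, or 14.3%, against 5.72% of all tested genes: Socs3, Ikbkb, Traf6 and Il6st, each higher in knockout. With 1 library left out the number was 1 to 4, and it was 1, Socs3, without wild type 1-1 or without knockout 3-1. In 6 genes, or 21.4%, every knockout library was above every wild-type library: Socs3, Il6st, Ikbkb, Traf6, Traf3 and Vcam1. Over all tested genes the libraries of the genotypes did not overlap in 11.4%, with the knockout higher in 5.7% and lower in 5.67%. No gene of the 28 was lower in every knockout library than in every wild-type library. Socs3 reached the floor only through its knockout libraries, so its place in these counts follows partly from the floor.

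The differences were small and centred near 0. The log2 fold change of knockout over wild type was above 0 in 17 of the 28 genes and below 0 in 11, with a median of 0.03, against -0.0038 over all tested genes. The median absolute log2 fold change was 0.104 in the 28 genes and 0.0857 over all. The 95% confidence interval had a median half-width of 0.249 on the log2 scale. It lay within a 1.5-fold change either way in 25 of the 28 genes and within a 2-fold change in 27. Folds of value + 1 understate the change of genes at low levels.

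**Figure D2:**
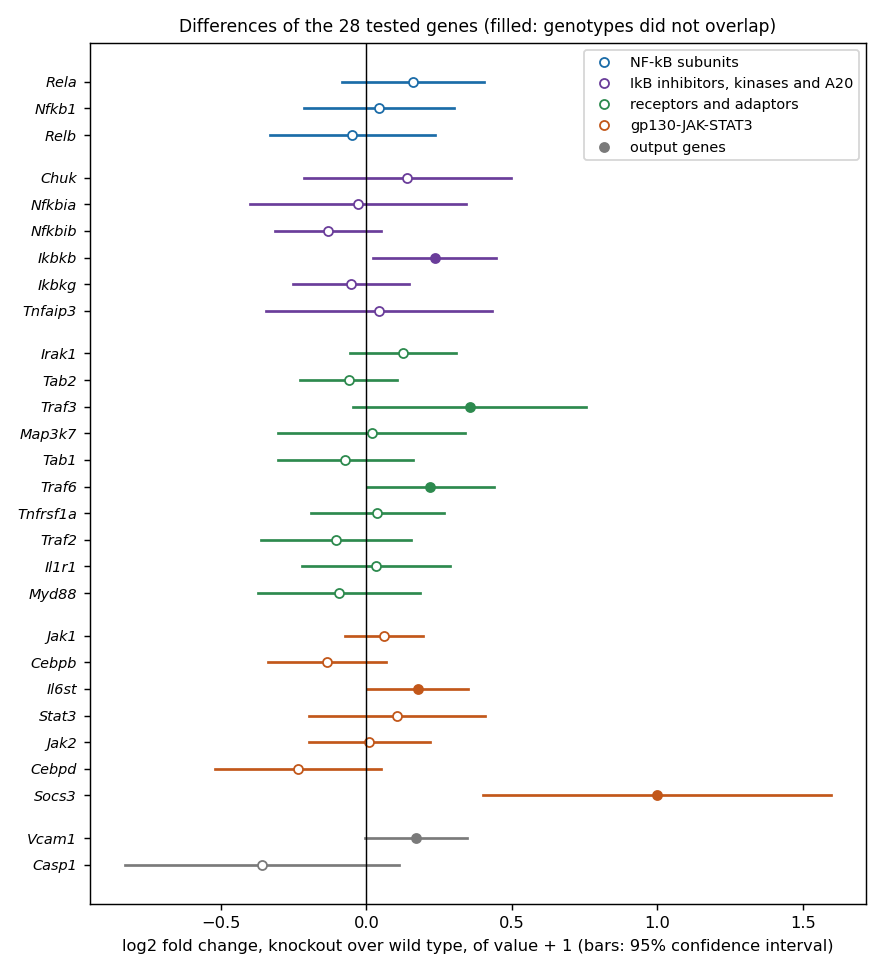
Log2 fold change of knockout over wild type for each of the 28 tested genes (points) with its 95% confidence interval from limma (bars), coloured by role. Filled points are the 6 genes whose libraries did not overlap between genotypes, all on the right of 0; Socs3, at 1.00, lies farthest from 0.

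**Figure D3:**
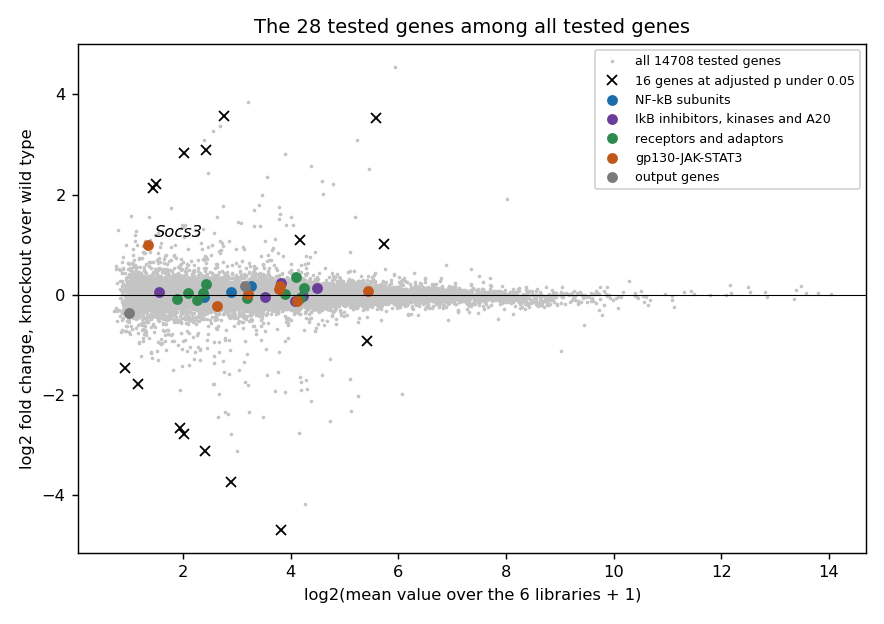
Log2 fold change of knockout over wild type against mean level, log2(mean value over the 6 libraries + 1), for all 14708 tested genes (grey), the 16 called genes (crosses) and the 28 pathway genes (coloured by role). The pathway genes lie within the cloud of all genes, and none of them is among the crosses.

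The NF-kB subunits were led by Rela and Nfkb1. Rela encodes p65, the subunit that carries the main transactivation domain of the canonical dimer. Its levels were 8.97, 7.16 and 7.87 in wild type and 9.34, 8.31 and 9.48 in knockout. The genotypes overlapped, and the log2 fold change was 0.16 (SE 0.10, limma adjusted p = 0.893). Nfkb1, which encodes the p105 precursor of the p50 subunit, had levels of 6.68, 6.06 and 6.07 in wild type and 5.96, 7.53 and 6.06 in knockout. Knockout 2-2 was the highest of these and the rest overlapped, with a log2 fold change of 0.04 (SE 0.11, limma adjusted p = 0.974). Relb, the partner of p52 in the non-canonical pathway, ranged from 3.61 to 4.87 in wild type and from 3.85 to 4.26 in knockout. The other 2 subunit genes lay around or under 1: Nfkb2 between 0.615 and 1.08 and Rel, which encodes c-Rel, between 0.594 and 0.966 over the 6 libraries. Of the 3 tested subunit genes, 2 had a log2 fold change above 0 and 1 below, with a median of 0.04. Reads over Nfkb2 cannot be told apart from those of the opposite-strand genes Psd and AC114539.1 over their shared exon stretches, because counting by strand is not stated.

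Among the IkB inhibitors and kinases, only Ikbkb separated the genotypes. Ikbkb (ENSMUSG00000031537.15, GRCm38 chromosome 8, 22659212 to 22706589, minus strand) encodes IKKbeta, the catalytic kinase of the canonical pathway. Its levels were 12.1, 11.3 and 12.5 in wild type and 14.2, 13.0 and 15.7 in knockout. All knockout libraries were above all wild-type libraries, with means of 11.95 ± 0.648 (SD, n = 3) and 14.3 ± 1.36 (SD, n = 3). The log2 fold change was 0.24 (95% interval 0.02 to 0.45), with an adjusted p of 0.847 in limma.

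The partners of this kinase overlapped between the genotypes. Chuk, which encodes IKKalpha, had levels of 17.2, 22.3 and 21.4 in wild type and 21.6, 27.3 and 18.9 in knockout. Wild type 1-1 was lowest and knockout 2-2 highest, and the log2 fold change was 0.14 (SE 0.15, limma adjusted p = 0.930). Ikbkg, which encodes the regulatory subunit NEMO, ranged from 10.2 to 11.5 in wild type and from 9.70 to 11.0 in knockout, and it shares exon stretches with G6pdx on the other strand.

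Nfkbia encodes IkBalpha, the inhibitor that NF-kB itself induces, so its transcript is widely read as a sign of pathway activity. Its levels were 15.8, 16.5 and 21.3 in wild type and 15.4, 15.8 and 21.3 in knockout. In each genotype 1 library stood above the other two, and the genotypes overlapped throughout. The log2 fold change was -0.03 (95% interval -0.40 to 0.34, limma adjusted p = 0.983). Nfkbib, the gene of IkBbeta, ranged from 16.2 to 17.1 in wild type and from 13.9 to 16.2 in knockout, a log2 fold change of -0.13 (SE 0.08). Tnfaip3, which encodes the inducible deubiquitinating enzyme A20, ranged from 1.43 to 2.44 in wild type and from 1.71 to 2.21 in knockout. Nfkbie, the gene of IkBepsilon, lay under 1 in all wild-type libraries and at 1.44, 1.22 and 0.941 in knockout, and it was not tested. Of the 6 tested genes of this group, 3 were above 0 and 3 below, with a median log2 fold change of 0.0069.

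The receptors and adaptors held Traf6 and Traf3, whose libraries did not overlap. Traf6 (ENSMUSG00000027164.8, chromosome 2, 101678429 to 101701669, plus strand) encodes the ubiquitin ligase that passes signals from interleukin-1 and Toll-like receptors to TAK1. Its levels were 3.78, 3.97 and 4.21 in wild type and 4.63, 4.79 and 5.00 in knockout. The highest wild-type library was below the lowest knockout library, and the log2 fold change was 0.22 (95% interval 0.0024 to 0.44, limma adjusted p = 0.874). Traf3 (ENSMUSG00000021277.16, chromosome 12, 111166370 to 111267153, plus strand) encodes an adaptor that restrains the non-canonical pathway by keeping its kinase NIK low. Its levels were 13.9, 13.9 and 13.5 in wild type and 23.8, 14.1 and 17.0 in knockout. The wild-type libraries were tightly grouped and the knockout libraries spread widely, with knockout 2-2 just above the wild-type range and knockout 1-1 far above it. The log2 fold change was 0.35 (95% interval -0.05 to 0.76, limma adjusted p = 0.881). Without knockout 1-1 it was 0.16, and without knockout 2-2 it was 0.52.

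The most abundant adaptors did not separate the genotypes. Irak1, a kinase recruited by MyD88, had levels of 17.7, 16.6 and 16.8 in wild type and 17.1, 19.0 and 20.05 in knockout. Knockout 2-2 and 3-1 were above the wild-type range and knockout 1-1 was within it, with a log2 fold change of 0.13 (SE 0.08, limma adjusted p = 0.893). Tab2, the TAK1-binding protein with 1 of the 3 seed matches shown above, had levels of 16.6, 18.0 and 17.4 in wild type and 15.6, 17.3 and 16.8 in knockout. The ranges overlapped, with a log2 fold change of -0.06 (SE 0.07, limma adjusted p = 0.940). Map3k7, the gene of TAK1, ranged from 12.5 to 15.6 in wild type and from 12.1 to 16.7 in knockout. Tab1, another TAK1 partner, ranged from 7.93 to 8.59 in wild type and from 6.93 to 8.67 in knockout.

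The receptors themselves were at lower levels and overlapped between genotypes. Tnfrsf1a, the main TNF receptor gene, ranged from 3.87 to 4.36 in wild type and from 4.03 to 4.51 in knockout. Il1r1, the signalling receptor for interleukin-1, ranged from 2.95 to 3.45 and from 3.00 to 3.46. Traf2, an adaptor of TNF receptors, ranged from 3.48 to 4.34 in wild type and from 3.44 to 3.71 in knockout. Myd88, the adaptor of interleukin-1 and most Toll-like receptors, ranged from 2.66 to 3.08 and from 2.36 to 2.93. Irak4, the kinase that acts before IRAK1, was below the floor at 0.721, 0.633 and 0.642 in wild type and 1.13, 0.759 and 0.555 in knockout. Of the 10 tested genes of this group, 6 were above 0 and 4 below, with a median log2 fold change of 0.02.

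The largest difference of the 28 genes was that of the feedback inhibitor gene Socs3. Socs3 (ENSMUSG00000053113.3, chromosome 11, 117966079 to 117970047, minus strand) encodes a protein that binds gp130 and JAK kinases and ends their signalling, and STAT3 induces it rapidly after cytokine exposure. Its levels were 0.649, 0.697 and 0.583 in wild type and 1.96, 1.47 and 3.85 in knockout. Every knockout library was above every wild-type library, and knockout 3-1 was far above the other two. The means were 0.643 ± 0.057 (SD, n = 3) and 2.43 ± 1.26 (SD, n = 3), a ratio of 3.77. On the log2(value + 1) scale the difference was 1.00 (95% interval 0.40 to 1.60, unadjusted p = 0.00555, adjusted p = 0.698 in limma). By p-value the gene ranked 115 among the 14708 tested, a set it entered only through its knockout libraries. With no filter on low values its unadjusted p was 0.0102 in limma (adjusted p = 0.886). Without knockout 3-1 the log2 fold change was 0.72 (limma adjusted p = 0.759). With 0.1 in place of 1 as the added value it was 1.66 (limma adjusted p = 0.628). The wild-type values stood for an estimated 32.5 to 50.6 reads and the knockout values for 68.6 to 209.1. The authors' deposited table gave Socs3 a log2 fold change of 1.91, p = 0.00115 and adjusted p = 1. In that table it was the only gene of the 39 with p under 0.05, against 0.236% of the 30876 genes with a p there, and 33 of the 39, like 64.9% of those genes, had a p of exactly 1. None of the 39 was among the 8 genes with adjusted p under 0.05 in the authors' deposited table.

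The 300 bases around the RefSeq start of Socs3 are shown because it is the gene with the largest difference, beside those of Nfkbia, the classical NF-kB target whose levels overlapped (RefSeq, GRCm38.p6, from 250 bases before the start to 50 after it; Socs3 at chr11:117969317-117969616 and Nfkbia at chr12:55492598-55492897, both minus strand). Capitals mark matches to the STAT motif TTCNNNGAA or to the kappaB consensus, both strands searched. In Socs3 a STAT match begins 154 bases before the RefSeq start and no kappaB match was found. GENCODE M21, from which the gene's position above was taken, places the start of Socs3 681 bases farther upstream, so this window lies inside the GENCODE gene. The starts of Nfkbia are the same in both annotations. In Nfkbia a kappaB match begins 29 bases before the start.
Socs3: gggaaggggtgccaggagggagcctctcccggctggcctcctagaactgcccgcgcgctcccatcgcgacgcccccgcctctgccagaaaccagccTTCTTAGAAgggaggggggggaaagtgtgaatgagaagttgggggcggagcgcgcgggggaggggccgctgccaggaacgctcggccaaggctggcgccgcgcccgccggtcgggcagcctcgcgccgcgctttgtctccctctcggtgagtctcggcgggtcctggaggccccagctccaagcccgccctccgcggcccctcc
Nfkbia: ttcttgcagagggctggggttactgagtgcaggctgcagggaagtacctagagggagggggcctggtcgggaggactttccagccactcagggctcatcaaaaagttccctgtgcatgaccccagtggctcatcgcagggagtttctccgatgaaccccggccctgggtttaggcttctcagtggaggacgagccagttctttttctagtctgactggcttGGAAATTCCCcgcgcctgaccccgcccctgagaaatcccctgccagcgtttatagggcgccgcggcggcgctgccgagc

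Over the list, 32 of the 39 genes had such a window, 42 windows in all, some of them overlapping. The kappaB consensus was found in 12 of the 42 windows, or 28.6%, against 4.51% of all 32851 windows. These belonged to 10 genes: Nfkb2, Rel, Nfkbia, Nfkbie, Tnfaip3, Il1r1, Map3k7, Traf3, Il6 and Nlrp3. The list was chosen to hold NF-kB-induced genes, and Nfkb2 had more than 1 such window. The share of kappaB matches cannot be told apart from that choice. The STAT motif was found in 6 of the 42, or 14.3%, against 8.30% of all windows, in Socs3, Chuk, Icam1, Myd88, Nfkb2 and Tnfrsf1a. Of the 6 genes whose libraries did not overlap, Socs3 and Traf3 were among these carriers. Il6st and Traf6 had a window without a match, and Ikbkb and Vcam1 had no window, so they were not searched. Nfkb1, Relb, Tab1, Cebpd and Ccl2 had no window either. A match describes letters only and says nothing of whether the factor binds.

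Elsewhere in the gp130-JAK-STAT3 group, Il6st was the second gene whose libraries did not overlap. Il6st (ENSMUSG00000021756.12, chromosome 13, 112464070 to 112510086, plus strand) encodes gp130 itself, and its 3′ UTR holds a seed match shown above. Its levels were 12.2, 12.8 and 11.4 in wild type and 13.6, 13.5 and 14.4 in knockout. All knockout libraries were above all wild-type libraries by a narrow margin, with a log2 fold change of 0.18 (95% interval 0.0011 to 0.35, limma adjusted p = 0.874). Jak1, given above, had a log2 fold change of 0.06 (SE 0.06, limma adjusted p = 0.918), and its genotypes overlapped. Jak2, the other kinase on gp130, ranged from 7.71 to 9.11 in wild type and from 8.08 to 8.46 in knockout.

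Stat3, the transcription factor of this branch, had levels of 12.4, 10.7 and 13.5 in wild type and 12.03, 15.6 and 12.04 in knockout. Knockout 2-2 was highest and the other two knockout libraries lay within the wild-type range, with a log2 fold change of 0.10 (SE 0.13, limma adjusted p = 0.945). Cebpb and Cebpd encode C/EBP factors that act with NF-kB and STAT3 at inflammatory genes. Cebpb had levels of 18.7, 15.3 and 17.4 in wild type and 15.3, 15.2 and 15.9 in knockout, and a log2 fold change of -0.14 (SE 0.09, limma adjusted p = 0.893). Wild type 2-1 lay within the knockout range and the other two wild-type libraries above it. Cebpd, a gene commonly counted among STAT3 targets, ranged from 4.69 to 6.34 in wild type and from 4.47 to 4.78 in knockout, a log2 fold change of -0.23 (SE 0.12). Cebpb shares exon stretches with Tmem189 and Cebpd with Spidr, each on the other strand. Of the 7 genes of this group, all tested, 5 were above 0 and 2 below, with a median log2 fold change of 0.06.

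**Figure D4:**
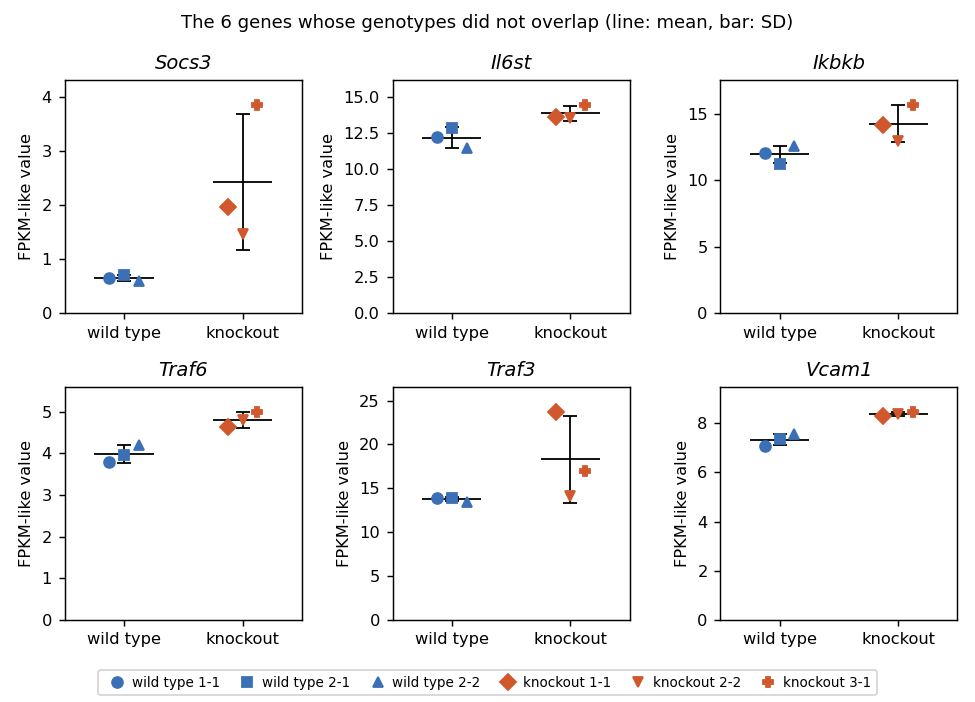
FPKM-like value in each library for the 6 genes in which every knockout library (orange) was above every wild-type library (blue), with the genotype mean (line) and SD (bar, n = 3), each axis starting at 0. Socs3 and Traf3 have a wide spread in knockout, while Vcam1 and Traf6 have narrow ranges in both genotypes.

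Of the 9 output genes, Vcam1 and Casp1 were high enough to test. Vcam1 (ENSMUSG00000027962.14, chromosome 3, 116109949 to 116129688, minus strand), an adhesion molecule of activated endothelium that is also expressed by other brain cells, was the higher of the pair. Its levels were 7.09, 7.36 and 7.56 in wild type and 8.31, 8.37 and 8.48 in knockout. The knockout libraries were tightly grouped above the wild-type libraries, with a log2 fold change of 0.17 (95% interval -0.0033 to 0.35, limma adjusted p = 0.875). Its exons share a short stretch with Gm43109 on the other strand. Casp1, the protease that cleaves pro-interleukin-1beta in the inflammasome, had levels of 1.20, 1.64 and 0.874 in wild type and 0.498, 0.653 and 1.08 in knockout. The ranges overlapped, and the log2 fold change was -0.36 (SE 0.20, limma adjusted p = 0.893), with an estimated 15.8 to 48.4 reads per library. With 0.1 in place of 1 as the added value the log2 fold change was -0.68 (limma adjusted p = 0.893).

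The cytokine and chemokine genes gave values near 0 in both genotypes. Il1b had levels of 0.315, 0.091 and 0.092 in wild type and 0.067, 0 and 0.980 in knockout. The highest of these, in knockout 3-1, stood for an estimated 35.1 reads, and the other libraries for 16.2 or fewer. Knockout 3-1 was also the library with the highest Socs3. Ccl2, a monocyte chemokine, was listed at 0 in 3 libraries and reached 0.139 in knockout 1-1. Tnf was listed at 0 in 4 libraries and reached 0.090, also in knockout 1-1. Nlrp3, the inflammasome sensor, lay between 0.133 and 0.334. Icam1, another endothelial adhesion molecule, lay between 0.458 and 0.836, and Birc3, the NF-kB target that encodes cIAP2, between 0.377 and 1.44. The genotypes overlapped in all 7 untested output genes.

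The highest library was not the same across genes. Among the 28 tested genes the highest library was knockout 3-1 in 10, knockout 2-2 in 6, knockout 1-1 in 1, and wild type 1-1, 2-1 and 2-2 in 5, 3 and 3. The lowest library was wild type 2-1 in 8 genes and knockout 1-1 in 6. The median coefficient of variation of the 28 genes was 7.99% within wild type and 7.60% within knockout.

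Markers of other cell types were set beside these results. The summed levels of 10 of 11 marker lists overlapped between the genotypes, and those of the choroid plexus did not. The 7 choroid plexus markers summed to between 8.70 and 10.2 in wild type and to 22.9, 18.5 and 10.3 in knockout, and 3 of the 7 were under 1 in every library. This followed mostly from Ttr, the transthyretin gene, at 1.68, 1.41 and 2.57 in wild type and 12.2, 10.7 and 2.74 in knockout. Knockout 3-1, with the highest Socs3, had the lowest choroid plexus sum of the knockout libraries. Knockout 1-1, the library with the highest Traf3, also had the highest sums of choroid plexus, ependymal and erythroid markers, the last at 441 against 159 to 295 in wild type, and its ependymal sum was 49.2 against at most 30.1 in wild type. The part of these markers in the Socs3, Vcam1 and Traf3 differences was not tested.

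The sums for the cell types most often tied to these pathways overlapped, although single markers in them did not. The markers higher in every knockout library than in every wild-type library were P2ry12 among 12 microglial genes (log2 fold change 0.31, limma adjusted p = 0.832), Gja1 among 8 astrocyte genes (0.24, limma adjusted p = 0.827), and Rgs5 and Cspg4 among 7 mural genes (0.33 and 0.13). Within these lists the log2 fold change was above 0 in 5 and below 0 in 7 microglial markers. It was above 0 in 4 and below 0 in 4 astrocyte markers, and above 0 in 3 and below 0 in 3 tested mural markers. Over all tested genes, 5.7% were higher in every knockout library. The median log2 fold change of the 10 endothelial markers was 0.11, beside 0.17 in Vcam1, and all 8 oligodendrocyte markers were below 0. Their part in the results was not tested. The 12 microglial markers summed to between 310 and 347 in wild type and between 273 and 378 in knockout. The 10 endothelial markers summed to between 108 and 144 in wild type and between 122 and 149.5 in knockout, and the 7 mural markers to between 55.3 and 67.7 and between 61.3 and 66.1. The 8 astrocyte markers summed to between 1077 and 1186 and between 1048 and 1308. The 8 neuronal markers summed to between 2247 and 2395 and between 2136 and 2602, the 8 hippocampal neuron markers to between 335 and 414 and between 317 and 413, and the 8 oligodendrocyte markers to between 2723 and 4111 and between 2254 and 3387. The 12 markers of blood and border leukocytes were under 1 in every library and summed to at most 2.59. Mitochondrially encoded transcripts took between 16.1% and 22.8% of each library's summed values.

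**Figure D5:**
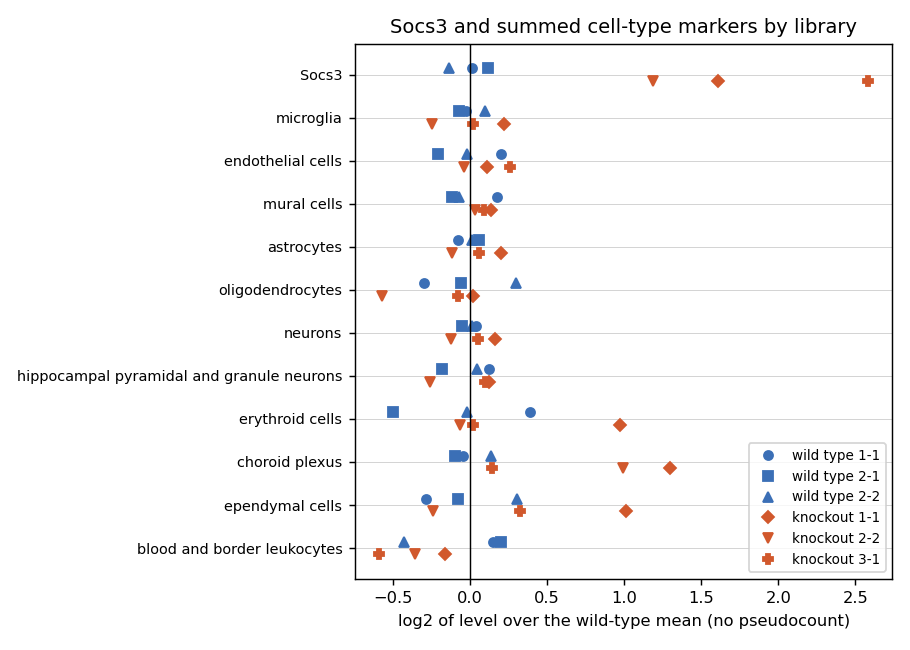
Socs3 and the summed markers of 11 cell types in each library, as log2 of the level over the wild-type mean with no added value. Blue symbols are wild-type and orange symbols knockout libraries. Socs3 is higher in all 3 knockout libraries, the choroid plexus sum is high in knockout 1-1 and 2-2 and near the wild-type values in knockout 3-1, and the other sums overlap between genotypes.

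The wider pathways were read from 155 further genes, of which 99 were tested. None was called (smallest limma adjusted p = 0.762). At an unadjusted p under 0.05 there were 6, or 6.06%, with 2 higher and 4 lower in knockout, and the libraries did not overlap in 12, or 12.1%, with 6 in each direction. Their median log2 fold change was 0.01. These shares stood near those over all tested genes.

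Among further NF-kB adaptors and enzymes, 2 of 22 tested genes had an unadjusted p under 0.05, both higher in knockout. Tab3, a TAK1-binding relative of TAB2, had levels of 7.20, 5.91 and 8.13 in wild type and 8.79, 11.7 and 12.2 in knockout. The genotypes did not overlap, with a log2 fold change of 0.56 (95% interval 0.19 to 0.92, limma adjusted p = 0.762). Xiap, a caspase inhibitor that also acts as a ubiquitin ligase in this pathway, ranged from 16.7 to 17.8 in wild type and from 18.8 to 19.9 in knockout, a log2 fold change of 0.17 (SE 0.06, limma adjusted p = 0.844).

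Among 17 tested inhibitors and nuclear cofactors, Nfkbil1 was the only gene with such a p, with ranges of 6.42 to 8.31 in wild type and 5.66 to 6.12 in knockout (log2 fold change -0.28, limma adjusted p = 0.847). Nkrf, which encodes a nuclear repressor of NF-kB target promoters and has been reported as a target of miR-301a in human cancer cells, had levels of 10.6, 10.7 and 11.5 in wild type and 10.6, 10.4 and 11.3 in knockout. The genotypes overlapped, with a log2 fold change of -0.02 (95% interval -0.19 to 0.16, limma adjusted p = 0.983). Of 9 tested receptors and ligands none had such a p, and Tnfrsf21, a death receptor, had the smallest (log2 fold change 0.18, limma adjusted p = 0.893).

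On the JAK-STAT side, 1 of 10 tested ligand and receptor genes had an unadjusted p under 0.05. Cntfr encodes the receptor that brings ciliary neurotrophic factor to gp130. Its levels were 59.5, 60.6 and 56.4 in wild type and 47.8, 52.9 and 53.7 in knockout. Every knockout library was below every wild-type library, with a log2 fold change of -0.19 (95% interval -0.35 to -0.03, limma adjusted p = 0.832). Lifr, which pairs with gp130 for leukaemia inhibitory factor, ranged from 7.63 to 8.08 in wild type and from 8.52 to 12.8 in knockout (log2 fold change 0.30, limma adjusted p = 0.885).

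None of 20 tested kinases, STATs and inhibitors had such a p. Pias3, which encodes an inhibitor of STAT3 and has been reported as a miR-301a target in mouse T cells, had levels of 10.02, 9.40 and 9.79 in wild type and 11.4, 12.5 and 8.59 in knockout. Knockout 1-1 and 2-2 were above the wild-type range and knockout 3-1 below it, with a log2 fold change of 0.13 (SE 0.13, limma adjusted p = 0.927). Its relative Pias1 ranged from 12.8 to 14.3 in wild type and from 14.7 to 15.7 in knockout (log2 fold change 0.13), and the phosphatase gene Ptpn6 from 1.68 to 2.49 and from 1.33 to 1.59 (log2 fold change -0.32).

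Responsive genes outside the list differed in direction. Gfap, the astrocyte filament gene and a STAT3-responsive gene, had levels of 155, 177 and 176 in wild type and 153, 137 and 125 in knockout. Every knockout library was below every wild-type library, by a narrow margin for knockout 1-1, with a log2 fold change of -0.29 (95% interval -0.51 to -0.07, limma adjusted p = 0.832). Vim, another filament gene induced in reactive astrocytes, ranged from 23.6 to 24.3 in wild type and from 24.3 to 28.0 in knockout (log2 fold change 0.14). Gfap was the only 1 of 9 tested STAT3-responsive genes with an unadjusted p under 0.05. Of 8 tested NF-kB-responsive genes the only one was Gadd45b, at 14.1, 13.3 and 12.4 in wild type and 11.9, 10.9 and 10.3 in knockout (log2 fold change -0.24, limma adjusted p = 0.832). Ptgs2, which encodes cyclooxygenase-2, overlapped between genotypes (log2 fold change 0.34, limma adjusted p = 0.893). Of 4 tested inflammasome genes none had such a p, and Gsdmd, which encodes the pore-forming protein gasdermin D, ranged from 1.08 to 2.17 in wild type and from 2.19 to 3.98 in knockout (log2 fold change 0.51, limma adjusted p = 0.879).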

How the data were processed

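The deposited table gave the authors' FPKM-like values per gene and library, with the authors' log2 fold change, p-value and adjusted p-value. The table names no unit, and the values are neither whole nor of equal sum (553879 to 628334), so they were read as FPKM-like, and a count test was not used. Per the submitters' processing notes, HISAT2 2.1.0, HTSeq, bcl2fastq and mm10 were involved, in roles that are not given. The design text of the series names BWA, TopHat, Cufflinks and ANOVA. Which of these made the table, the authors' test, and the handling of strand and multi-mapping reads are not given in the sources used here.

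Values were transformed to log2(value + 1) and fitted by limma 3.58.1 under R 4.3.3 (3 against 3 libraries, genotype as the term, trend on mean level, two-sided, Benjamini-Hochberg adjustment) over the 14708 genes that reached 1 in 3 or more of the 6 libraries, after a check on simulated data. An exact permutation test over 3 against 3 libraries cannot give a two-sided p under 0.1. Sequences came from RefSeq and GENCODE M21 tables, searched with Python 3.11.15 and pandas 2.3.3. Depth is an estimate, so no counting intervals were computed. The 39 genes, the 155 further pathway genes and the 11 marker lists were chosen with earlier results of these data known. The genes given by library are, per role, those whose genotypes did not overlap or whose unadjusted p was under 0.05 and the 2 with the highest mean; further pathway genes are up to 2 per list with the smallest p, plus Nkrf and Pias3. Stat3, Il6, Il1b, Nfkbie and Irak4 were added after their values were seen. Alternatives were another added value, filter, scaling or variance model, a replicate block, and leaving out each library.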

Additional observations from a re-analysis of the deposited data

How the results depend on the processing

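No gene of the 39 was called under any alternative run. The number of all genes called was 6 with 0.01 as the added value, 4 with no filter on low values and 7 over genes with a mean value of 5 or more, against 16, and it ranged from 4 to 17 when 1 library was left out. The number of the tested genes of the list with an unadjusted p under 0.05, 4 in the report, was 5 with an added value of 0.1 or 0.01 (5.63% and 5.64% of all tested genes), 6 with scaling that left out the mitochondrial genome (5.69%), and 2 at a mean value of 5 or more (6.04%), where 19 were tested and Socs3 and Traf6 were not. It ranged from 1 to 4 when 1 library was left out (4.49% to 6.19%), and was 2 without wild type 2-2 or knockout 1-1. The number whose genotypes did not overlap then ranged from 8 to 12, since fewer libraries overlap more rarely (19.6% to 22.6% of all tested genes). With 1 library left out, the median log2 fold change of the 28 genes ranged from -0.0017 (without knockout 2-2) to 0.0555. Small differences changed sign when 1 library was left out, the log2 fold change ranging from -0.11 to 0.11 in Map3k7, -0.032 to 0.075 in Jak2, -0.078 to 0.17 in Tnfaip3, -0.15 to 0.029 in Relb, -0.17 to 0.097 in Nfkbia, -0.0086 to 0.078 in Il1r1, -0.052 to 0.095 in Nfkb1, -0.012 to 0.18 in Stat3 and -0.14 to 0.0058 in Tab1. The 6 genes named as not overlapping kept their direction under all alternatives in which they were tested. Except under another scaling this was fixed in advance, since every knockout library of these genes was above every wild-type library.

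Codes 1-1 and 2-2 occur in both genotypes, but nothing says that they pair libraries. Deviations from the genotype means correlated at -0.099 and -0.061 for equal codes and at -0.057 to 0.11 for unlike codes. In a fit with the codes as a replicate block, a library whose code occurs in only 1 genotype adds nothing to the fold change. The fold changes of that fit rest on the libraries coded 1-1 and 2-2 alone. Its shifts therefore cannot separate blocking from the loss of the other libraries. With this block, 0 of all genes were called and 2 of the 28 had an unadjusted p under 0.05, against 4.15% of all tested genes. These were Socs3 (log2 fold change 0.74) and Chuk (0.32), while Ikbkb (0.13), Traf6 (0.19) and Il6st (0.18) were no longer among them, and the log2 fold change became -0.084 in Tnfaip3, -0.031 in Tnfrsf1a and 0.029 in Tab1. Scaling without the mitochondrial genome moved the median of all genes to 0.02 and that of the 28 genes to 0.06. This scaling brought the remaining values of each library to a sum of 1e+06, which raised them, so the added value of 1 weighed less. edgeR and DESeq2 were not run because the values are not counts. Beyond these features of the fits, the cause of the shifts was not tested. Low values limit Socs3, Casp1, Nfkbie and the cytokine genes most.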

Other observations

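Lif, which encodes the gp130 cytokine leukaemia inhibitory factor, was under the floor for testing and was chosen after its values were seen. It stood at 0.814, 0.965 and 0.933 in wild type and 0.123, 0.312 and 0.254 in knockout, so that every knockout library was below every wild-type library. In the limma fit with no filter on low values its log2 fold change was -0.63 (unadjusted p = 0.00073, adjusted p = 0.410). Of the 30879 genes in that fit, 4.46% had an unadjusted p under 0.05, and in 8.91% the genotypes did not overlap. Osmr, which encodes a related gp130 partner, overlapped between the genotypes at 0.733, 0.743 and 0.834 in wild type and 0.771, 1.02 and 0.745 in knockout. Il11, another ligand of this family, stood at 0.063, 0.232 and 0.118 in wild type and 0.309, 0.317 and 0.311 in knockout. Its genotypes did not overlap either, with the knockout higher. In the same unfiltered fit its log2 fold change was 0.21 (limma unadjusted p = 0.0217, adjusted p = 0.886).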
